A study of Oryza sativa with 7 samples.

Results

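Transcript counts of 7 rice genes known for their part in root development were followed across root, leaf, young panicle and seed. The genes are CRL1 (Os03g0149100), CRL5 (Os07g0124700), WOX11 (Os07g0684900), DRO1 (Os09g0439800), QHB (Os01g0854500), SHR1 (Os07g0586900) and SCR1 (Os11g0124300). They were chosen by locus ID, as loci with known root roles, and are 7 of the 37858 loci in the tables. All 7 were found, with 23 exon bins between them (an exon bin is a segment of exon that was counted on its own). All 7 passed the filter on low counts, which asked for enough counts in 1 library. CRL1 passed it through root alone and WOX11 through seed 2 alone. All plants were Oryza sativa of the cultivar Ilmi, and the labels name no mutant or treatment. Root was sampled at 14 days (1 library) and leaf at 14 days (2 libraries). Panicle libraries (2) hold flowers before pollination, from panicles between 0.5 and 1.5 cm long. Seed libraries (2) hold ripening grains at 20 to 30 days after pollination, and their names give 21 days. The labels do not say which zone of the root was taken.

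Rice roots are mostly crown roots, which arise from the stem. CRL1, a LOB-domain transcription factor under auxin control, and CRL5, a transcription factor of the AP2/ERF family, are known from crown rootless mutants and act when crown roots are initiated. WOX11, a WUSCHEL-related homeobox factor, promotes the emergence and growth of crown roots. QHB, another homeobox factor, marks the quiescent centre, the small group of slowly dividing cells at the centre of the root stem cell niche. SHR1 and SCR1 are GRAS transcription factors: SHORT-ROOT protein moves out of the central cylinder and works with SCARECROW to set apart endodermis and cortex. In rice leaves SCARECROW genes are also known for a part in stomatal patterning. DRO1 acts in the bending of roots towards gravity and so sets how deeply a root system grows.

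Totals over exon bins lay between 11989260 and 49312943 counts per library, and the root library held 20940842. Levels are given as CPM, counts scaled to library size with edgeR's TMM factors. A read that spans several bins is counted in each, and no gene lengths were used, so levels are compared between tissues and not between genes. The labels do not say whether replicates were separate plants, so a p-value measures only the spread between these libraries. With 1 library, root has no spread of its own, and its tests borrow the spread measured in leaf, panicle and seed. In whole organs, fewer cells of a type and less RNA per cell cannot be told apart. The tissue labels were checked with 16 marker loci taken from general knowledge of rice, since the tables hold no gene names. Earlier results of these data were known when the markers were listed. Each marker locus was highest on average in the tissue it was listed for. The 5 root marker loci summed to 1756 CPM in root, against 12.1 and 17.6 CPM in leaf, 0.101 and 0.172 CPM in panicle, and 5.70 and 16.3 CPM in seed. The 3 leaf marker loci summed to 26.4 CPM in root, against 44912 and 54944 CPM in leaf. The 4 panicle marker loci were high in seed as well, at 525 and 283 CPM, beside 667 and 586 CPM in panicle.

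Among the members, only CRL1 was higher in root than in each of the other 6 libraries. The share of all loci with that order of libraries was not counted. CRL1 had 65 counts in root, against 0 and 3 in leaf, 1 and 6 in panicle, and 2 and 3 in seed. Of all CRL1 counts, the root library held 81.3%. Scaled to library size, CRL1 stood at 3.01 CPM in root, against 0 and 0.0779 CPM in leaf, 0.0335 and 0.259 CPM in panicle, and 0.123 and 0.317 CPM in seed. No other library reached a level near that of root. The log2 fold change was 5.80 over leaf (edgeR, SE 1.46, adjusted p = 0.0366), which passed the call of an adjusted p under 0.05 and a change of 2-fold or more. Over panicle it was 4.37 (edgeR, SE 1.34, adjusted p = 0.0513) and over seed 3.83 (edgeR, SE 1.38, adjusted p = 0.0952), and neither passed. Among all loci tested, 2.81% had a higher log2 fold change of root over leaf, 9.94% over panicle and 6.67% over seed. CRL1 was tested only because its root counts passed the filter, so its calls and these ranks are not independent of that entry. With no low-count filter, root over leaf was 5.78 (edgeR, adjusted p = 0.0204). CRL1 passed against panicle under 6 of the 15 alternatives run and against seed under 1, and its sign was kept in all. The call against leaf was kept under 13 of the 15 alternatives. It was lost without leaf 1 and without leaf 2, at log2 fold changes of 5.18 and 8.89. Os03g0149000, the locus next to CRL1 in the numbering, had 16 counts in root, 1 in leaf 2, 1 in seed 2 and none in the other 4 libraries. Whether the pair share reads was not tested.

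CRL5 went the other way, with no count in the root library. Its counts were 0 in root, against 36 and 150 in leaf, 144 and 356 in panicle, and 2 and 2 in seed. In scaled units that is 0 CPM in root, 2.05 and 3.90 CPM in leaf, 4.83 and 15.4 CPM in panicle, and 0.123 and 0.211 CPM in seed. Root thus lay below all 6 other libraries, as it did for WOX11, while panicle was highest. The share of all loci with root below every other library was not counted. At the level of leaf the root library would have held 71.7 counts, and at that of panicle 204. CRL5 was lower in root than in leaf (edgeR, adjusted p = 0.0163) and lower than in panicle (edgeR, adjusted p = 0.00675). Against a floor of 3 counts in the root library, it was at least 23.9-fold lower than in leaf and at least 67.9-fold lower than in panicle. These folds rest on sums over 7 bins, and with bin 7 alone, the bin with most counts, they were at least 7.71-fold and 22.4-fold. Without panicle 2 the sum gave at least 34.8-fold, and without leaf 2 at least 14.8-fold, where the call against leaf was lost (edgeR, adjusted p = 0.0669). The call against panicle was kept under all 15 alternatives run. Against seed, where CRL5 was also close to 0, it was not called (edgeR, adjusted p = 0.178).

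WOX11, the other crown root gene, also had no count in root, but it was sparse in every tissue. Its counts were 0 in root, against 2 and 18 in leaf, 3 and 5 in panicle, and 3 and 18 in seed. Seed 2 had the highest level, at 1.90 CPM, and seed 1 had 0.184 CPM. At the level of leaf the root library would have held 7.71 counts, at that of panicle 3.26, and at that of seed 17.6. No difference between root and another tissue passed, with adjusted p of 0.250 against leaf, 0.276 against panicle and 0.118 against seed (edgeR). Against the floor of 3 counts, WOX11 was at least 2.57-fold lower in root than in leaf and at least 5.86-fold lower than in seed. With bin 3 alone, the bin with most counts, the leaf level lay under the floor and the figure for seed was 2.23-fold. Without leaf 2 the leaf level also lay under that floor, and without seed 2 the figure for seed was 1.32-fold. How far the zero of WOX11 lies below the other tissues thus depends on the bins and libraries used, while that of CRL5 lies well below its leaf and panicle levels. Of all 26784 loci tested, 7.95% had no count in root. Among loci at or above the mean level of CRL5 in leaf that share was 2.41%, and at or above its mean level in panicle 1.16%.

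QHB was rare in whole organs and most frequent in root and in 1 of the panicle libraries. It had 14 counts in root, against 2 and 7 in leaf, 1 and 18 in panicle, and 1 and 2 in seed. Root stood at 0.648 CPM, leaf at 0.114 and 0.182 CPM, panicle at 0.0335 and 0.776 CPM, and seed at 0.0613 and 0.211 CPM. Root lay above both leaf and both seed libraries and between the panicle libraries. The log2 fold change was 2.05 over leaf (edgeR, SE 1.61, adjusted p = 0.456), 2.33 over seed (edgeR, SE 1.78, adjusted p = 0.385) and 0.70 over panicle (edgeR, SE 1.58, adjusted p = 0.768). None passed, and the last turned to -0.38 without panicle 1.

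**Figure D1:**
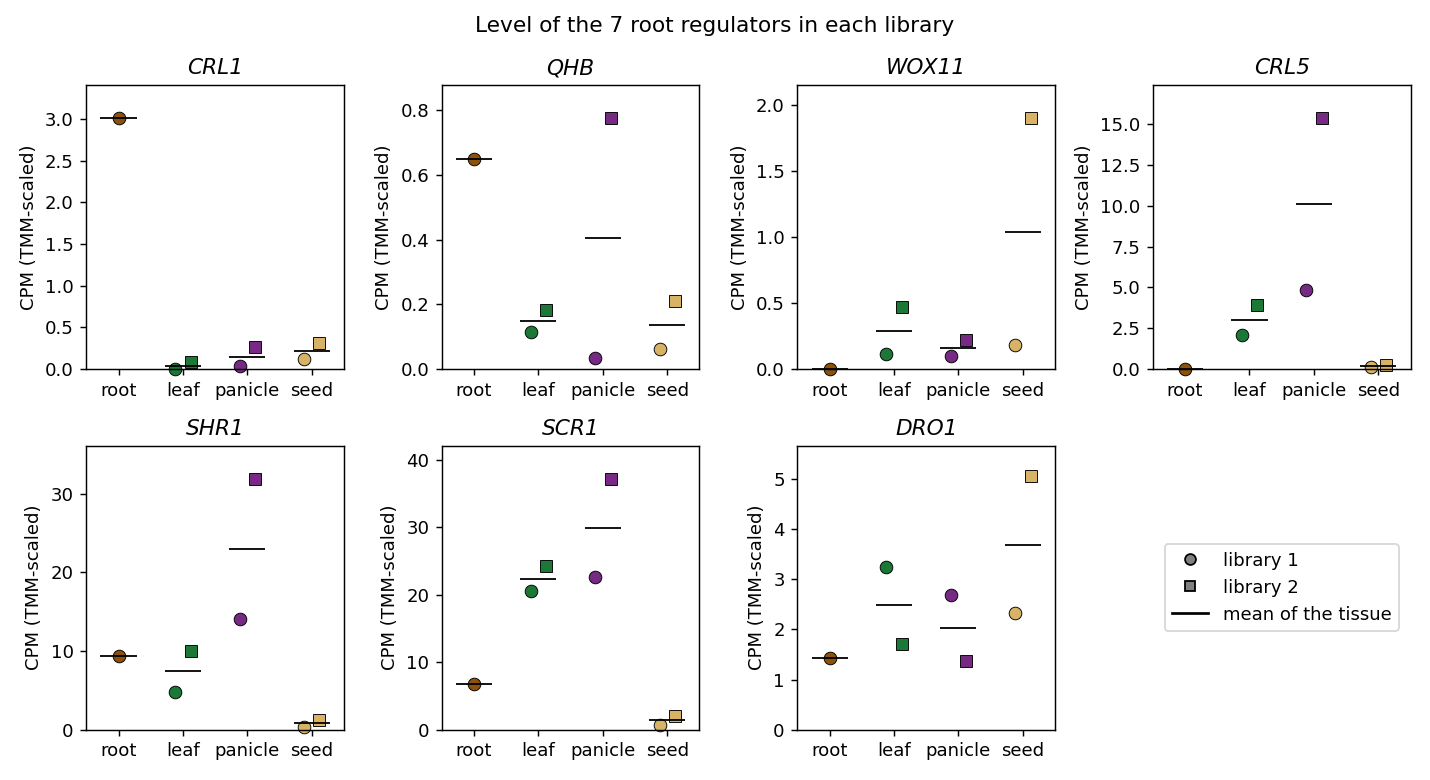
TMM-scaled CPM (y axes, each from 0) of the 7 genes in every library of root, leaf, panicle and seed; circles are library 1, squares library 2 and lines the mean of the tissue. CRL1 stands out in root at 3.01 CPM, CRL5 and WOX11 are at 0 there, and SHR1 and SCR1 are highest in panicle and lowest in seed.

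SHR1 and SCR1, the pair of ground tissue regulators, were detected in leaf and panicle as well as in root and were nearly absent from seed. SHR1 had 201 counts in root, against 85 and 386 in leaf, 420 and 738 in panicle, and 5 and 12 in seed. That is 9.30 CPM in root, 4.85 and 10.03 CPM in leaf, 14.1 and 31.8 CPM in panicle, and 0.306 and 1.27 CPM in seed. Root fell between the leaf libraries and below both panicle libraries. SHR1 was higher in root than in seed by 3.65 on the log2 scale (edgeR, SE 0.88, adjusted p = 0.0305). It was not called against leaf (0.32, SE 0.82; edgeR, adjusted p = 0.852) or panicle (-1.30, SE 0.87; edgeR, adjusted p = 0.291).

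SCR1 had 147 counts in root, against 359 and 932 in leaf, 673 and 861 in panicle, and 12 and 19 in seed. Its level was 6.80 CPM in root, 20.5 and 24.2 CPM in leaf, 22.6 and 37.1 CPM in panicle, and 0.735 and 2.01 CPM in seed. Every leaf and panicle library was above root and every seed library below it. Root exceeded seed by 2.36 on the log2 scale (edgeR, SE 0.61, adjusted p = 0.0380), which passed. It was -1.72 over leaf (edgeR, SE 0.64, adjusted p = 0.118) and -2.13 over panicle (edgeR, SE 0.65, adjusted p = 0.0508), which did not. The value against leaf passed with only the root and leaf libraries in the fit (edgeR, adjusted p = 0.00105) and without seed 1 or seed 2 (edgeR, adjusted p = 0.0238 and 0.0237), with log2 fold changes of -1.70, -1.72 and -1.71. The value against panicle sat at the threshold: it passed under 8 of the 15 other settings run and kept its sign in all of them. The calls of SHR1 and SCR1 against seed were lost without leaf 1 (edgeR, adjusted p = 0.0614 for SHR1 and 0.0874 for SCR1) and without leaf 2 (0.0616 and 0.0874), while their log2 fold changes stayed at 3.64 for SHR1 and at 2.36 and 2.35 for SCR1. That of SCR1 was also lost without panicle 1 or panicle 2 (edgeR, adjusted p = 0.0597 and 0.0606). With only the root and seed libraries in the fit neither passed (edgeR, adjusted p = 0.103 for SHR1 and 0.210 for SCR1).

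Rice has a closely similar SCARECROW gene on chromosome 12, taken here from general knowledge to be Os12g0122000, a link that the tables do not give. That locus had 131 counts in root, against 255 and 817 in leaf, 642 and 890 in panicle, and 22 and 14 in seed. Reads of the pair may be split by the counting or lost, so the level of SCR1 alone is uncertain. SCR1 made up 52.9% of the counts of the pair in root (95% Wilson interval 47.0% to 58.7%), against 58.5% and 53.3% in leaf, 51.2% and 49.2% in panicle, and 35.3% and 57.6% in seed. With the counts of both added, an alternative chosen after the data were seen, the log2 fold change of root over panicle was -2.22 (edgeR, SE 0.54, adjusted p = 0.0240), which passed. Over leaf it was -1.64 (edgeR, SE 0.52, adjusted p = 0.0748) and over seed 2.23 (edgeR, SE 0.48, adjusted p = 0.0222). Os03g0433200, a possible relative of SHR1, had 70 counts in root, against 37 and 181 in leaf, 162 and 187 in panicle, and 4 and 1 in seed.

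SHR1 was most frequent relative to SCR1 in root, a comparison chosen after the values were seen and given without a test. SHR1 had 1.37 counts for each count of SCR1 in root, against 0.237 and 0.414 in leaf, 0.624 and 0.857 in panicle, and 0.417 and 0.632 in seed. Gene length and library scaling cancel in this comparison between libraries. As a share of the counts of both, SHR1 held 57.8% in root (95% Wilson interval 52.5% to 62.8%) and 46.2% (43.7% to 48.6%) in panicle 2, the next highest. The seed intervals were wide and that of seed 2 reached 56.2%. With Os12g0122000 counted beside SCR1, the share of SHR1 was 42.0% (37.6% to 46.4%) in root, against 12.2% and 18.1% in leaf, 24.2% and 29.7% in panicle, and 12.8% and 26.7% in seed. These intervals cover counting error only, and the 2 bins of SCR1 can count the same read.

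**Figure D2:**
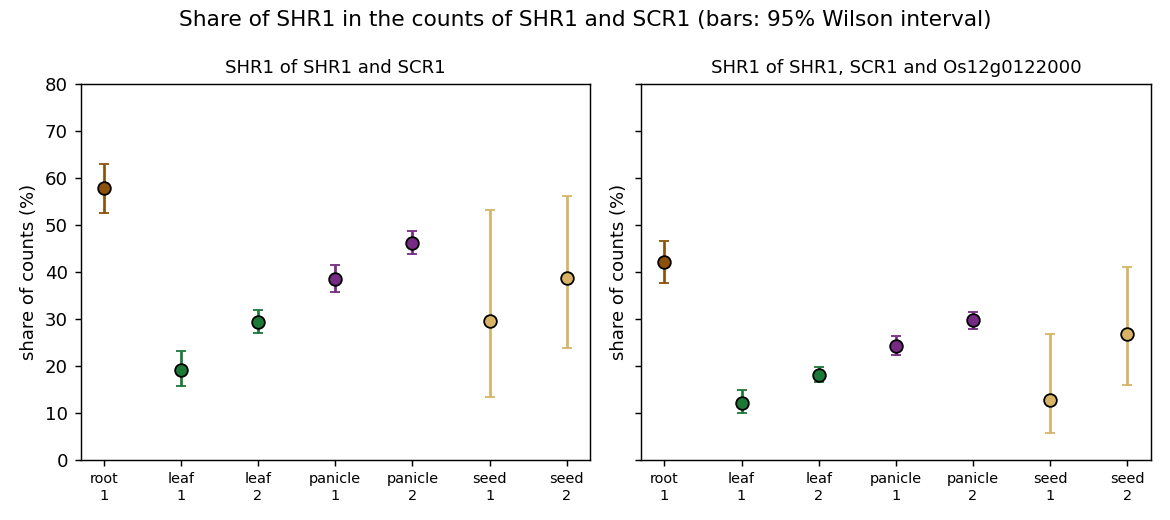
Share of SHR1 (y axis, percent) in the summed counts of SHR1 and SCR1 (left) and of SHR1, SCR1 and Os12g0122000 (right) in each library (x axis); bars are 95% Wilson intervals. Root is the highest point in both panels, at 57.8% and 42.0%, and the 2 seed points have the widest intervals.

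DRO1 was detected at a few CPM in all 4 tissues, and no difference between root and another tissue passed. It had 31 counts in root, against 57 and 66 in leaf, 80 and 32 in panicle, and 38 and 48 in seed. Its level was 1.43 CPM in root, 3.25 and 1.71 CPM in leaf, 2.68 and 1.38 CPM in panicle, and 2.33 and 5.07 CPM in seed. Root was the second lowest of the 7 libraries, just above panicle 2 and below both leaf and both seed libraries. The log2 fold change of root was -0.78 over leaf (SE 0.85), -0.50 over panicle (SE 0.84) and -1.35 over seed (SE 0.87), and none passed (edgeR, adjusted p = 0.604, 0.676 and 0.307). All 3 kept their sign under the 15 alternatives, and with the largest bin alone root over seed was -2.02 (edgeR, adjusted p = 0.240).

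Between 0 and 2 of the 7 genes were called in each direction, and each count is given beside the share of all loci called that way. Against leaf, 1 gene was higher in root (CRL1; 7.23% of all loci tested were called higher) and 1 was lower (CRL5; 10.8% were called lower). Against panicle, none was called higher by edgeR or DESeq2, with 1 at an unadjusted p under 0.05 by each tool, while 18.0% of all loci were. In that comparison 1 was lower (CRL5; background 10.2%). Against seed, 2 were higher (SHR1 and SCR1; background 10.7%) and none was lower by edgeR or DESeq2, with 1 at an unadjusted p under 0.05 by each tool; the background was 9.50%. No member was called higher in root than in all 3 other tissues by edgeR or DESeq2 (CRL1 alone had an unadjusted p under 0.05 in all 3, by edgeR), while 4.39% of loci were. The median log2 fold change of the 7 was -0.78 over leaf, -1.30 over panicle and 2.33 over seed, against -0.07, -0.05 and -0.09 over all loci. These medians include fitted values for CRL5 and WOX11, which rest on the small count that edgeR adds to a zero.

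**Figure D3:**
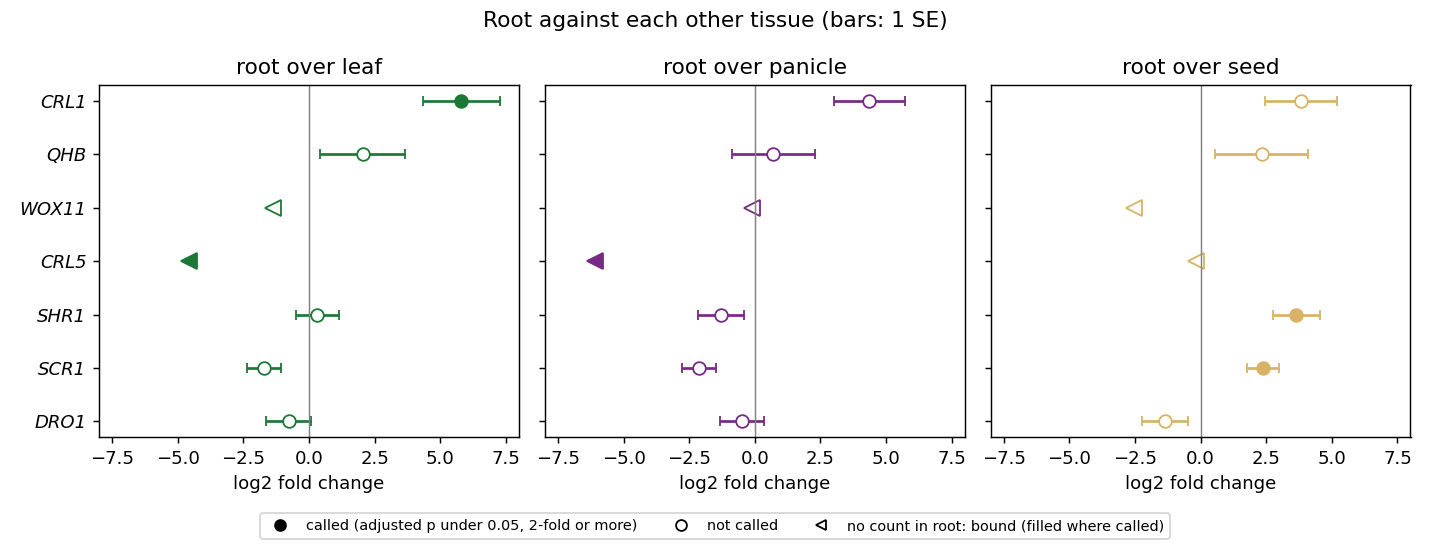
Log2 fold change (x axis) of root over leaf, over panicle and over seed for the 7 genes, with bars of 1 SE; filled symbols passed the call, and triangles give the bound for CRL5 and WOX11, which had no count in root. CRL1 lies to the right in all 3 panels, and SHR1 and SCR1 lie to the right over seed and to the left over panicle.

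Other loci linked to roots were set beside the 7 genes. A list of 20 further loci linked to rice root development was written down from general knowledge, with earlier results of these data known. The list could not be checked against names in the tables, and 18 of its loci were tested. It includes Os12g0122000, Os03g0433200 and Os03g0149000, described above as possible relatives or a neighbour of SCR1, SHR1 and CRL1. Against leaf, 7 were called higher in root, 1 lower and 10 neither, beside 7.23% higher and 10.8% lower over all loci. Against panicle, 7 were higher, 2 lower (1 of them Os12g0122000) and 9 neither, beside 18.0% and 10.2%. Against seed, 9 were higher (Os12g0122000 and Os03g0433200 among them) and 9 were not called, beside 10.7% higher and 9.50% lower over all loci; none was lower by edgeR or DESeq2, with 2 and 1 at an unadjusted p under 0.05. Their median log2 fold change was 1.76 over leaf, 2.24 over panicle and 2.62 over seed, against -0.07, -0.05 and -0.09 over all loci. Os06g0108600 shows the clearest pattern of the list and was singled out after its values were seen, with 266 counts in root and none in any other library. It passed the filter only through its root counts, as did Os06g0184000 and Os03g0149000. Such loci enter the counts and medians of the list because they are high in root.

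Away from root, 3 of the 7 genes were called between tissues, all of them against seed. CRL5, SHR1 and SCR1 were higher in leaf than in seed, and the same 3 were higher in panicle than in seed. Over all loci, 18.1% were called higher and 11.2% lower in leaf than in seed, and 10.1% higher and 17.1% lower in panicle than in seed. CRL5 averaged 2.97 ± 1.30 CPM in leaf and 10.1 ± 7.44 CPM in panicle, and 0.167 ± 0.0626 CPM in seed (SD, n = 2 each). On the log2 scale it was higher by 4.19 for leaf over seed (edgeR, SE 0.90, adjusted p = 0.0157) and 5.94 for panicle over seed (edgeR, SE 0.92, adjusted p = 0.00566). SHR1 averaged 7.44 ± 3.66 CPM in leaf, 23.0 ± 12.6 CPM in panicle and 0.786 ± 0.679 CPM in seed (SD, n = 2 each), with log2 fold changes over seed of 3.34 and 4.96 in leaf and panicle (edgeR, adjusted p = 0.0227 and 0.00744). SCR1 averaged 22.3 ± 2.64 CPM in leaf, 29.8 ± 10.3 CPM in panicle and 1.37 ± 0.898 CPM in seed (SD, n = 2 each), with values over seed of 4.08 and 4.50 (edgeR, adjusted p = 0.00357 and 0.00316). The call for leaf over seed was lost without leaf 1 for SHR1 (edgeR, adjusted p = 0.0562), and without leaf 2 for SHR1 (0.128) and CRL5 (0.0871). No member was lower in leaf or panicle than in seed by edgeR or DESeq2, with none at an unadjusted p under 0.05 by either tool. Between leaf and panicle no member was called by edgeR or DESeq2, with 1 member at an unadjusted p under 0.05 by edgeR and 2 by DESeq2, while 30.0% of all loci were called. The closest to a call were CRL5, where leaf over panicle came to -1.75 on the log2 scale (edgeR, SE 0.68, adjusted p = 0.0955), and SHR1, at -1.62 (edgeR, SE 0.69, adjusted p = 0.118). Both were near enough to the threshold to pass under other settings. In a fit of those 4 libraries alone, CRL5 and SHR1 passed (edgeR, adjusted p = 0.0495 and 0.0313). CRL5 also passed without panicle 1 (edgeR, adjusted p = 0.0486), at a log2 fold change of -2.50, but was at -0.82 without panicle 2 (edgeR, adjusted p = 0.492). SHR1 also passed without seed 1 or seed 2 (edgeR, adjusted p = 0.0408 and 0.0404).

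Libraries of the same tissue differed from each other at several of the 7 genes. On the log2(CPM + 0.5) scale, panicle 2 exceeded panicle 1 by 1.57 for CRL5, 1.26 for QHB, 1.15 for SHR1, 0.71 for SCR1, 0.51 for CRL1 and 0.25 for WOX11, and DRO1 was lower in panicle 2 by a difference of -0.76. The median absolute difference between these libraries was 0.25 over all loci tested. The panicle marker loci summed to 586 CPM in panicle 2 and 667 CPM in panicle 1, and the part of such differences in the results was not tested. In leaf, SHR1 differed by 0.98, CRL5 by 0.78 and WOX11 by 0.66, all higher in leaf 2, against a median of 0.29. DRO1 was lower in leaf 2, by a difference of -0.76. In seed, WOX11 differed by 1.81, SHR1 by 1.13, SCR1 by 1.02 and DRO1 by 0.98, all higher in seed 2, against a median of 0.52. Apart from DRO1, every member was higher in library 2 than in library 1 of leaf, panicle and seed, and root has only 1 library. The share of all loci with that pattern was not counted. Some of these differences rest on few counts, such as 0 and 3 for CRL1 in leaf and 1 and 2 for QHB in seed.

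The series asked about alternatively spliced transcripts, and no member showed a change in exon bin use between root and another tissue. Testable genes had 2 or more bins with enough counts, which left CRL1 (2 of 2 bins), CRL5 (6 of 7), DRO1 (3 of 6) and SCR1 (2 of 2). SHR1 has a single bin, and WOX11 and QHB had too few counts. None of the 4 was called in any of the 3 comparisons by edgeR's diffSpliceDGE, and none had an unadjusted p under 0.05 there or with voom and diffSplice. Calls were rare over all loci too, at 0.0864% against leaf, 0.130% against panicle and 0.0432% against seed. CRL5 has no share in root, since it had no count there, so its test holds no information on bins.

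Within the counts that were there, the bins of CRL1 were used evenly in root, with 31 counts in bin 1 and 34 in bin 2. SCR1 had 54.4% of its root counts in bin 1 (95% Wilson interval 46.4% to 62.3%), against 60.2% and 65.5% in leaf, 49.2% and 64.7% in panicle, and 58.3% and 52.6% in seed. In root the value lay inside the range of the panicle libraries. For DRO1, bins 1 and 2 held 9.68% and 6.45% of counts in root, with a Wilson interval of 1.79% to 20.7% for bin 2. Bin 1 held 15.8% and 15.2% in leaf, 7.50% and 6.25% in panicle, and 10.5% and 10.4% in seed. Both leaf libraries were above all others, but the bin had at most 10 counts in any library and was not tested. In CRL5, bins 1 and 2 were almost empty: bin 1 had 2 counts in leaf 2 and 6 in panicle 2, and bin 2 had 1 and 15 in the same libraries, with none elsewhere. Bins 3 to 7 held nearly all counts, led by bin 7 with 47.2% and 28.7% in leaf and 34.7% and 32.3% in panicle.

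**Figure D4:**
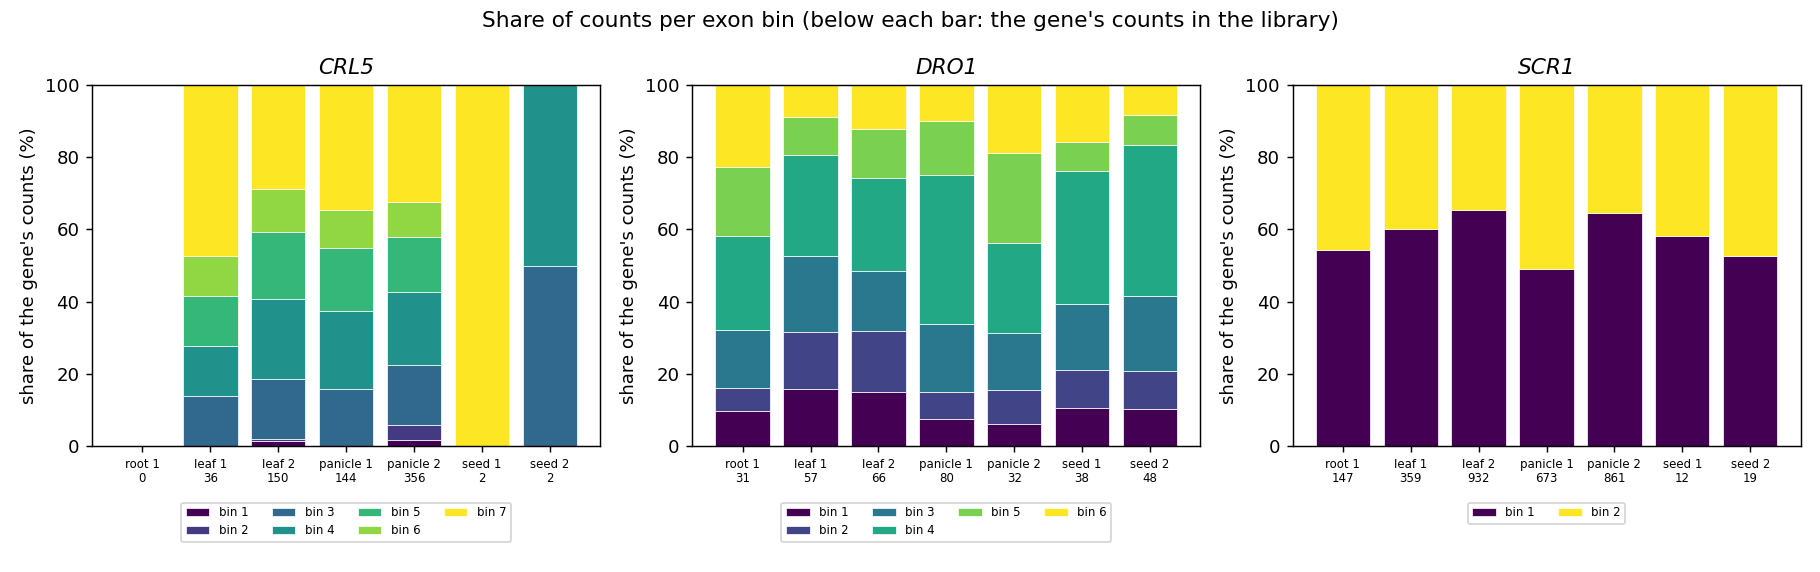
Share of each gene's counts (y axis, percent) in its exon bins, stacked by bin, for CRL5, DRO1 and SCR1 in each library (x axis, with the gene's counts in that library beneath). CRL5 has no bar in root, and its 2 seed bars rest on 2 counts each; bin 1 of SCR1 lies between 49.2% and 65.5% in all libraries.

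Among the 7 genes, SHR1 and SCR1 had the most similar profiles, with r = 0.917 between their log2(CPM + 0.5) values over the 7 libraries, followed by CRL5 and SCR1 with r = 0.857. The points share libraries and depth, so both values are a description. Of 24349 other loci with a mean of 10 or more counts, the closest to SCR1 was Os09g0382200 (r = 0.994) and the closest to SHR1 was Os07g0580800 (r = 0.993). The closest to CRL5 was Os09g0307400 (r = 0.991), which also had no count in root. The closest to DRO1 was Os01g0767700 (r = 0.980). With 7 libraries and so many loci, some close matches arise in any case.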

How the data were processed

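The authors deposited 1 table of raw counts per library, whole numbers per exon bin, not normalized. Per the submitters' processing notes, the tools included TopHat2 2.0.4 with Bowtie2, Cufflinks, HTSeq, SAMtools 1.2 and bcl2fastq 1.8.4, with IRGSP-1.0 as the build. Strand setting and filters are not given, so antisense or overlapping partners of a gene cannot be told apart. The 5 closing rows that name no gene (12.2% to 15.8% of counts) were left out. Bins were summed per locus and tested with edgeR 4.0.16 (R 4.3.3): filterByExpr (minimum count 10), TMM, glmQLFit and glmQLFTest in 1 model of 7 libraries and 4 tissue means, Benjamini-Hochberg adjustment over 26784 loci. SEs were derived from the log2 fold change and its F statistic. Usage was tested with diffSpliceDGE on 18512 loci (adjusted Simes p). Both were tested on simulated data with 1 fixed spread. Changes were planted there only in loci or bins with more counts than CRL1, WOX11 or QHB have, so genes as sparse as these were not covered. DESeq2 1.42.0, limma 3.58.1 and other settings were alternatives. All members are named; the closest locus by Pearson r is given for the 4 with most counts. Gene names come from the selection rule: the tables pair no names with IDs, though RefSeq's gene table (ASM3414082v1) lists 4 of the 7 symbols, on the chromosomes that the IDs give. Members and lists were chosen with earlier results of these data known.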

Additional observations from a re-analysis of the deposited data

How the results depend on the processing

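Members called for root against panicle numbered 1, but 2 with DESeq2, 2 with RLE factors, 2 with scaling without the 100 most abundant loci, 2 with the largest bin count, 3 with no low-count filter and 3 with only the libraries compared; CRL1 and SCR1, close to the threshold, account for the difference. With only the libraries compared, root against seed gave 0 members and 2117 loci (2 and 5420 with all libraries), and root against leaf 3 members (2) and 9488 loci (4840). Usage calls over all loci were 16, 24 and 8 against leaf, panicle and seed, but 38, 66 and 30 with voom and 28, 69 and 36 with the F test, and 10 against leaf with no filter.

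With 1 library left out, members called ranged from 0 to 3 against leaf, 1 to 3 against panicle and 0 to 3 against seed, and over leaf, panicle and seed pairs from 4 to 7 (6 with all libraries). All loci called ranged from 1757 to 7359, 4111 to 10705 and 2990 to 7613. Loci called for usage ranged from 3 to 31, 4 to 49 and 5 to 12. For all loci, the lowest value of each range came without a leaf or panicle library and the highest without a seed library; the cause was not tested.

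Directions turned only for values that were not called. With the largest bin, leaf over panicle was -0.22 for DRO1 and leaf over seed -0.064 for QHB. With a library left out, SHR1 root over leaf ranged from -0.11 to 0.94, QHB root over panicle from -0.38 to 3.97, DRO1 leaf over panicle from -0.24 to 0.70, WOX11 leaf over panicle from -0.43 to 1.56, QHB leaf over seed from -0.45 to 1.25, CRL1 panicle over seed from -2.46 to 0.31, CRL1 leaf over panicle from -4.53 to 0.36, QHB leaf over panicle from -2.44 to 1.90, QHB panicle over seed from -1.75 to 2.59 and DRO1 leaf over seed from -1.10 to 0.077. No scaling alternative turned a direction of root against another tissue; scaling without the abundant loci moved the median over all loci against seed from -0.09 to -0.20.

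Replicate numbers 1 and 2 recur in leaf, panicle and seed. The deviations of same-numbered libraries correlated at 0.14, 0.22 and 0.04. With 2 libraries per tissue, these values cannot show whether the numbers pair samples, and the main fit left the numbers out. With the replicate block, 3 members were called against panicle, 3 against seed and 2 against leaf, and 8 over leaf, panicle and seed pairs (6 without it), with CRL5 and SHR1 passing between leaf and panicle (edgeR, adjusted p = 0.0433 and 0.0207). The block raised the log2 fold changes of root for every member but DRO1, whose values fell, and turned none of their signs. The only root library is numbered 1, so the block in effect sets root against the library 1 levels of the other tissues. Apart from DRO1, members were lower in library 1 of those tissues, so the rise follows from the numbering. Root over leaf went from 5.80 to 7.52 for CRL1, from 2.05 to 3.55 for QHB and from 0.32 to 1.06 for SHR1. Root over panicle went from 0.70 to 2.56 for QHB and from -1.30 to -0.54 for SHR1. WOX11 failed the filter without seed 2 and with the largest bin count, and had no value there. With only the libraries compared, WOX11 had a value for root against seed alone. Depth limits CRL1, WOX11 and QHB most, with 80, 49 and 45 counts in all.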

Other observations

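Os03g0149000, next to CRL1 in the numbering, followed CRL1 over the 7 libraries with r = 0.978 between log2(CPM + 0.5) values, at 0.741 CPM in root and at most 0.106 CPM in any other library. The value rests on the root library. Its log2 fold changes of root were not called over leaf, panicle or seed (edgeR, adjusted p = 0.115, 0.056 and 0.185).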
